A study of Homo sapiens with 6 samples.

Results

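The cyclins, the cyclin-dependent kinases (CDKs), their inhibitors and the E2F transcription factors were examined in RNA sequencing of 143B cells, a human osteosarcoma cell line, with and without deletion of CNTNAP4. A list of 46 gene symbols defined the group, and all 46 are among the 54308 genes of the deposited table. The 3 vector control (VC) libraries came from 143B cells transfected with a vector plasmid and carried the control genotype, and the 3 knockout (KO) libraries came from 143B cells transfected with a CNTNAP4 KO plasmid. The labels give 48 h of transfection for all 6 libraries, while the study's methods describe CRISPR/Cas9 deletion followed by single-cell sorting, with RNA from clonal cells. The sources used here do not say which clone gave each library, so an effect of the deletion and an effect of the clone cannot be told apart. CNTNAP4, a neurexin family membrane protein and the deleted gene, had a log2 signal of -7.18 in VC replicate 3 and no value in the other libraries, so its signal does not check the labels.

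Progress through the cell cycle is driven by CDKs that are active only when bound to a cyclin. D-type cyclins with CDK4 and CDK6 phosphorylate the pocket proteins RB1, RBL1 and RBL2, which releases E2F factors that switch on cyclins E and A and the genes of DNA replication. Cyclins A and B with CDK1, and the transcription factors B-MYB (MYBL2) and FOXM1, then carry the cell through G2 and mitosis, while the INK4 and CIP/KIP inhibitors hold the kinases back. Osteosarcomas are known for frequent loss of the RB1 and CDKN2A arm of this pathway.

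The deposited values are log2 signals made equal in distribution between the 6 libraries by quantile normalization. Their linear unit is not stated, so levels are compared between libraries for a gene and not between genes. The exception is the marker sums, which add linear signals over genes and weigh most the gene with the largest signal. Every fold change is KO against VC on the log2 scale. The number of genes with a value lay between 20333 and 21041 per library, and the depth of the libraries is unknown. All 8 mesenchymal and osteoblast lineage markers had a value in every library, with VIM at 10.33 to 10.93 and SPARC at 6.46 to 6.95 in the 6 libraries, although COL1A2 was at -5.72 to -4.59. Their summed linear signal was 1430 to 1606 in VC and 1732 to 2147 in KO, without overlap. VIM makes up most of that sum and was itself not called (log2 fold change 0.38, adjusted p = 0.0667), so the sum does not show a joint rise. Of the 8 markers COL1A1, SPARC, ALPL and FN1 were called higher and COL1A2 lower. The part of these markers in the results below was not tested. None of the 5 leukocyte and 4 endothelial markers exceeded -3.29 in any library. The summed linear signal of the endothelial markers was 0.0551 to 0.0883 in VC and 0.0561 to 0.109 in KO, and that of the leukocyte markers was 0.141 to 0.191 in VC and 0.0109 to 0.0666 in KO. Of the 5 epithelial markers 4 had a value in all libraries and CDH1 only in VC replicate 2, and their summed linear signal was 577 to 640 in VC and 553 to 609 in KO. Within that sum EPCAM was lower (log2 fold change -0.67, adjusted p = 0.0157) and KRT8 higher (0.59, adjusted p = 0.0135). KRT18, which makes up most of the sum, was not called (-0.26, adjusted p = 0.085).

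Of the 46 genes, 44 had a value in all 6 libraries and were tested, and CDKN2A and CDKN2B had none in any library. In limma's moderated test across all 19306 genes tested, 22 of the 44 had an adjusted p under 0.05, 19 lower and 3 higher in KO. That is 50% of the group, where 32.9% of all genes tested were called. The share called lower was 43.2% against 19.8% of all genes, and the share called higher was 6.82% against 13.1%. Unadjusted, 32 of the 44 had a p under 0.05, as did 9241 of all 19306 genes tested. The split over all genes depended on the scaling, with 3828 lower and 2526 higher as deposited, 3066 lower and 3141 higher with median-centred libraries, and 2584 lower and 2899 higher with chromosome-centred libraries. For the 44 genes the split was 19 lower and 3 higher with median-centred libraries and 14 lower and 4 higher with chromosome-centred libraries. The median log2 fold change of the 44 genes was -0.49 and that of all genes tested was -0.13. All KO values lay below all VC values in 31 of the 44 genes, where the share of all genes with 6 values was 36.7%, and above them in 4, where the share was 22.6%. In these bulk libraries a smaller share of cells in a cycle phase and less RNA per cell cannot be told apart.

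**Figure D1:**
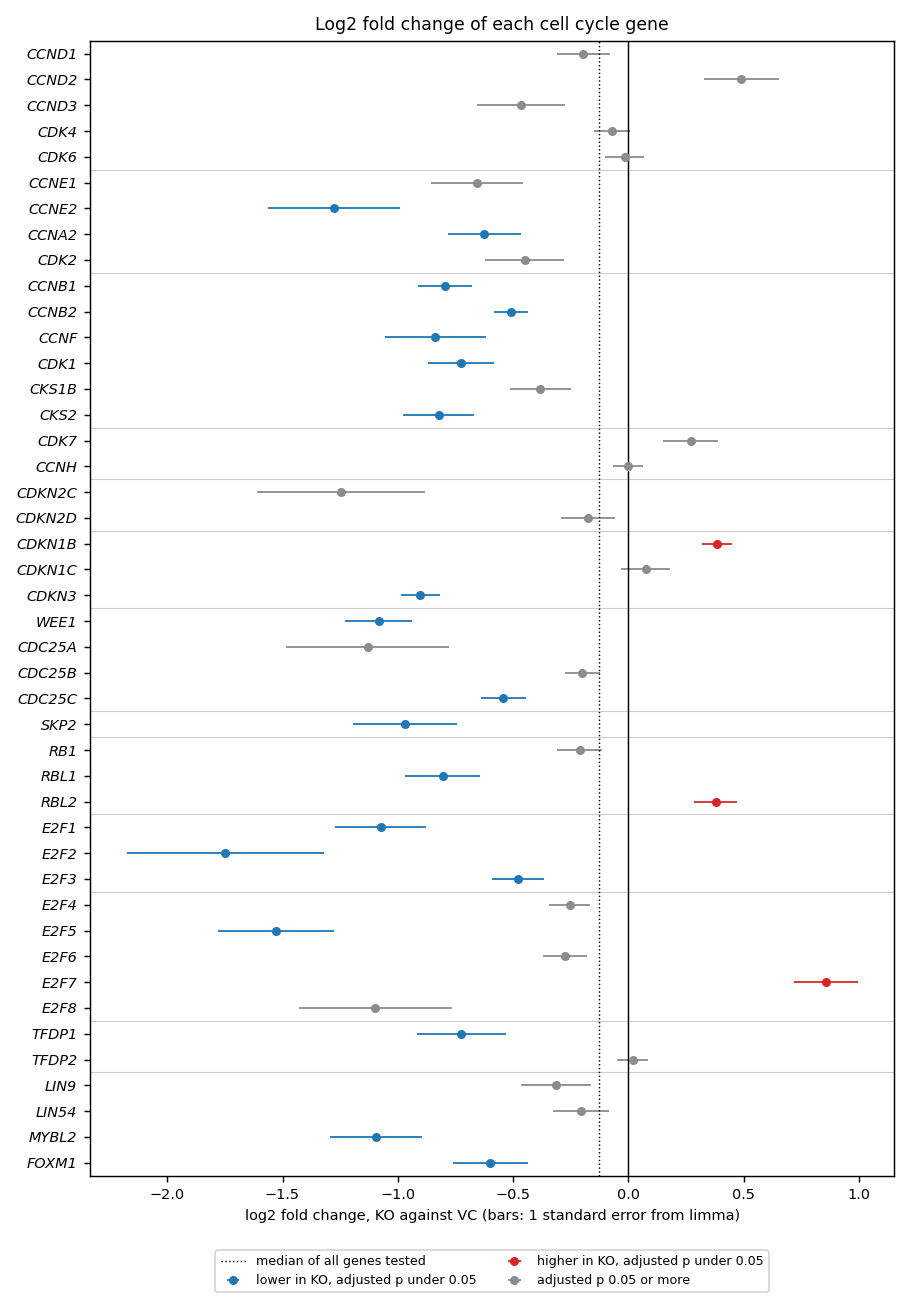
Log2 fold change (KO against VC, x axis) of the 44 tested genes, ordered by role with lines between roles, as points with bars of 1 standard error from limma. The 19 blue genes lie left of 0 and of the dotted line at the median of all genes (-0.13), and the 3 red genes (CDKN1B, RBL2 and E2F7) lie right of 0.

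The calls depended on the libraries in the fit. Leaving out VC replicate 1, 2 or 3 in turn left 3, 5 or 2 of the 44 genes called, while leaving out KO replicate 1, 2 or 3 gave 33, 23 or 6. Over all genes, leaving out VC replicate 1, 2 or 3 left 1403 of 18610, 2450 of 18748 or 1223 of 18626 called. Leaving out KO replicate 1, 2 or 3 gave 8669 of 18458, 4393 of 18646 or 2018 of 18584. The called share of the 44 genes was under that of all genes in each fit without a VC library. It was above that of all genes in each fit without a KO library. All 22 called genes kept their direction in each of the 6 fits. CDKN3 and WEE1 were called in all 6 fits and CCNB1 in 5. CCNB2 and E2F7 were called in 4 fits and E2F5 in 3. Another 13 called genes were called only without KO replicate 1 and without KO replicate 2, and CCNA2, RBL2 and FOXM1 only without KO replicate 1.

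The KO libraries differed more among themselves than the VC libraries did. The SD within KO was larger than that within VC in 41 of the 44 genes, with a median SD of 0.245 in KO and 0.0545 in VC. The median deviation of the 44 genes from their VC means was -0.28 in KO replicate 1, -0.69 in KO replicate 2 and -0.54 in KO replicate 3. The same median over all genes with 6 values was -0.04, -0.16 and -0.15. Among the 31 genes with all KO values under all VC values, KO replicate 1 was the highest KO library in 30 and KO replicate 2 the lowest in 28.

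**Figure D2:**
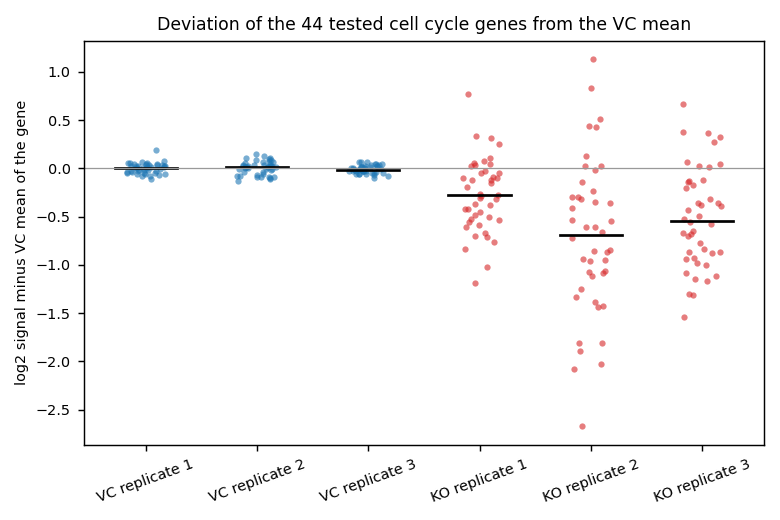
Log2 signal minus the mean of the 3 VC libraries (y axis) for each of the 44 tested genes (points, spread sideways for visibility) in each library (x axis), with the median as a black bar. The VC points stay close to 0, and the KO medians are -0.28, -0.69 and -0.54 in replicates 1, 2 and 3.

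Of the G1 cyclins and their kinases none of 5 was called, where 32.9% of all genes tested were. Cyclin D1 (CCND1), the D-type cyclin that responds to mitogens, had log2 signals of 8.06, 8.003 and 8.01 in the VC libraries, in replicate order as for all genes below, against 7.98, 7.61 and 7.89 in the KO libraries. Every KO value was under every VC value, but by little in KO replicate 1 (log2 fold change -0.19 with a standard error, SE, of 0.11, adjusted p = 0.23). CCND3 ranged from 4.05 to 4.17 in VC and from 3.28 to 4.001 in KO (-0.46, adjusted p = 0.115, from 0.0266 without KO replicate 1 to 0.232 without VC replicate 3). CCND2 had the opposite sign, at 2.18 to 2.34 in VC and 2.58 to 3.10 in KO, without overlap (0.49, adjusted p = 0.0687). Its adjusted p was 0.0487 with libraries centred on the median of each chromosome and 0.161 without VC replicate 2. The partner kinases CDK4 and CDK6 had overlapping groups and fold changes of -0.07 (SE 0.08) and -0.02 (SE 0.08), whose signs turned with median-centred libraries (0.02 and 0.07).

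Among the S phase cyclins and their kinase, 2 of 4 (50%) were lower, against 19.8% of all genes tested. Cyclin E2 (CCNE2), which with CDK2 drives entry into S phase, had log2 signals of 3.14, 3.34 and 3.15 in VC and 2.50, 1.40 and 1.90 in KO. Every KO library was under every VC library, KO replicate 2 furthest (log2 fold change -1.28, SE 0.29, adjusted p = 0.0279), which put the KO mean at 41.2% of VC on the linear scale. CCNE2 lies on chromosome 8, where the median of 636 tested genes was -0.32, and with chromosome-centred libraries its fold change was -0.97 (adjusted p = 0.0547). Cyclin A2 (CCNA2), which acts in S phase and G2, was at 6.04, 6.19 and 6.11 in VC and 5.81, 5.25 and 5.41 in KO (-0.62, SE 0.16, adjusted p = 0.0365). CCNE1 was at 2.98 to 3.02 in VC and 1.93 to 2.68 in KO (-0.65, adjusted p = 0.0555, and 0.02 without KO replicate 1 and 0.0444 without KO replicate 2). Its kinase CDK2 was at 4.83 to 4.85 in VC and 4.11 to 4.74 in KO (-0.45, adjusted p = 0.0943, and 0.009 without KO replicate 1). In all 4 genes every KO value was under every VC value, as in 36.7% of all genes with 6 values. The highest adjusted p with a library left out was 0.0801 for CCNE2 (without VC replicate 2) and 0.102 for CCNA2 (without KO replicate 3). It was 0.131 for CCNE1 (without VC replicate 1) and 0.2085 for CDK2 (without KO replicate 3).

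The mitotic group had the most calls of any role with more than 3 genes. Of its 6 genes 5 were lower (83.3%, against 19.8% of all genes tested). In all 6 every KO value was under every VC value, as in 36.7% of all genes with 6 values. Cyclin B1 (CCNB1), the main cyclin of mitotic entry, had log2 signals of 6.77, 6.91 and 6.77 in VC and 6.23, 5.88 and 5.95 in KO (log2 fold change -0.80, SE 0.12, adjusted p = 0.0124). The 3 KO values were close together, at 57.6% of the VC level on average. Cyclin B2 (CCNB2) was at 5.79, 5.88 and 5.80 in VC and 5.40, 5.28 and 5.27 in KO (-0.51, SE 0.07, adjusted p = 0.0124). Their kinase CDK1 was at 5.73, 5.84 and 5.69 in VC and 5.30, 4.80 and 4.98 in KO (-0.73, SE 0.14, adjusted p = 0.0213). KO replicate 1 lay nearest to VC for each of these genes. CKS2, a small subunit that docks on CDK complexes, was at 7.08, 7.08 and 7.004 in VC and 6.52, 5.97 and 6.19 in KO (-0.82, SE 0.15, adjusted p = 0.0184). Cyclin F (CCNF), an F-box protein that targets substrates for degradation and binds no CDK, was at 4.33, 4.20 and 4.30 in VC and 3.85, 3.02 and 3.44 in KO (-0.84, SE 0.22, adjusted p = 0.0386, and 0.0521 with chromosome-centred libraries). CKS1B, the paralog of CKS2, was at 5.59 to 5.68 in VC and 5.03 to 5.49 in KO (-0.38, adjusted p = 0.0746, and 0.0178 without KO replicate 1). The highest adjusted p with a library left out was 0.0502 for CCNB1 and 0.0538 for CCNB2 (each without VC replicate 3), and 0.069 for CDK1, 0.0644 for CKS2, 0.106 for CCNF and 0.177 for CKS1B (each without VC replicate 1).

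Promoters of CCNB2 and CDK1 are shown because both genes were lower in KO and their promoters hold the elements marked below. MuvB and E2F complexes are known to act through such elements. The part of these elements in the lower signals was not tested, and the 2 promoters were picked for holding them. The stretches are the 200 bases before a RefSeq start in GRCh38.p14, written on the strand of the gene. Capitals mark the CHR element (TTTGAA or TTCGAA), the CCAAT box (CCAAT) and E2F motifs, which are TTCCCGC along with the variant TTGGCGC, the variant TTGCCGC and the variant TTCGCGC, each searched on both strands, where TTGGCGC can share bases with a reversed CCAAT box.
CCNB2, chr15:59104946-59105145, + strand: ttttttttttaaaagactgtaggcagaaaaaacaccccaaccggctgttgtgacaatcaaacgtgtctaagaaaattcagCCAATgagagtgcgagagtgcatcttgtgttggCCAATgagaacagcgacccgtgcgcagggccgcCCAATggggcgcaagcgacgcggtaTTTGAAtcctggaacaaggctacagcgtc
CDK1, chr10:60778131-60778330, + strand, the upstream of 2 listed starts: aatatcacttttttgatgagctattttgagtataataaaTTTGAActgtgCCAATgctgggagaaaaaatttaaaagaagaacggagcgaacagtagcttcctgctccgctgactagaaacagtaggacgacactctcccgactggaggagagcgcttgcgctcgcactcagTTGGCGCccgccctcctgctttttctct
A motif on the other strand appears as its reverse complement, and positions are counted from -1 at the base before the start. In the CCNB2 stretch 3 CCAAT boxes end at -116, -83 and -50, and a CHR element ends at -24. The CDK1 stretch holds a CHR element that ends at -156, a CCAAT box that ends at -146 and an E2F motif that ends at -22. Counted from the other listed CDK1 start, whose window is not shown, CHR elements end at -64, -8 and 15. In that window CCAAT boxes end at -74 and -42 and E2F motifs at -169 and -121. Over the 300-base windows of RefSeq, 37 of the 46 genes had an entry, and 13 of them (35.1%) held a CHR element, 20 (54.1%) a CCAAT box and 14 (37.8%) an E2F motif. Of all 27305 genes with an entry, 19.5%, 39.7% and 15.3% did. A gene counted if any of its windows held the motif. The 37 genes had 58 windows and all genes had 35116, so more windows per gene were searched in the group. Among the 15 lower genes with an entry, 7 held a CHR element (CCNB2, CCNF, CDC25C, CDK1, CDKN3, CKS2 and E2F3) and 8 an E2F motif, and among the 17 tested genes with an entry that were not called, 5 held a CHR element and 5 an E2F motif. Of the 3 higher genes, 1 held a CHR element (RBL2) and 1 an E2F motif (E2F7). CCND1, CCND2, CCNE2, CDK2, CDKN1C, WEE1, E2F5, E2F8 and FOXM1 had no entry.

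The CDK-activating kinase CDK7 and its cyclin CCNH, which serve the cycle kinases at all phases and also transcription, were not called. CDK7 had log2 signals of 4.23 to 4.47 in VC and 4.43 to 4.75 in KO (log2 fold change 0.27, adjusted p = 0.129), with overlapping groups. CCNH had the fold change nearest to 0 of the 44 genes, at 2.28 to 2.33 in VC and 2.26 to 2.33 in KO. Its fold change was -0.00098 (SE 0.06), and its sign turned with median-centred libraries (0.09), a further quantile normalization (0.05) and chromosome-centred libraries (0.10).

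**Figure D3:**
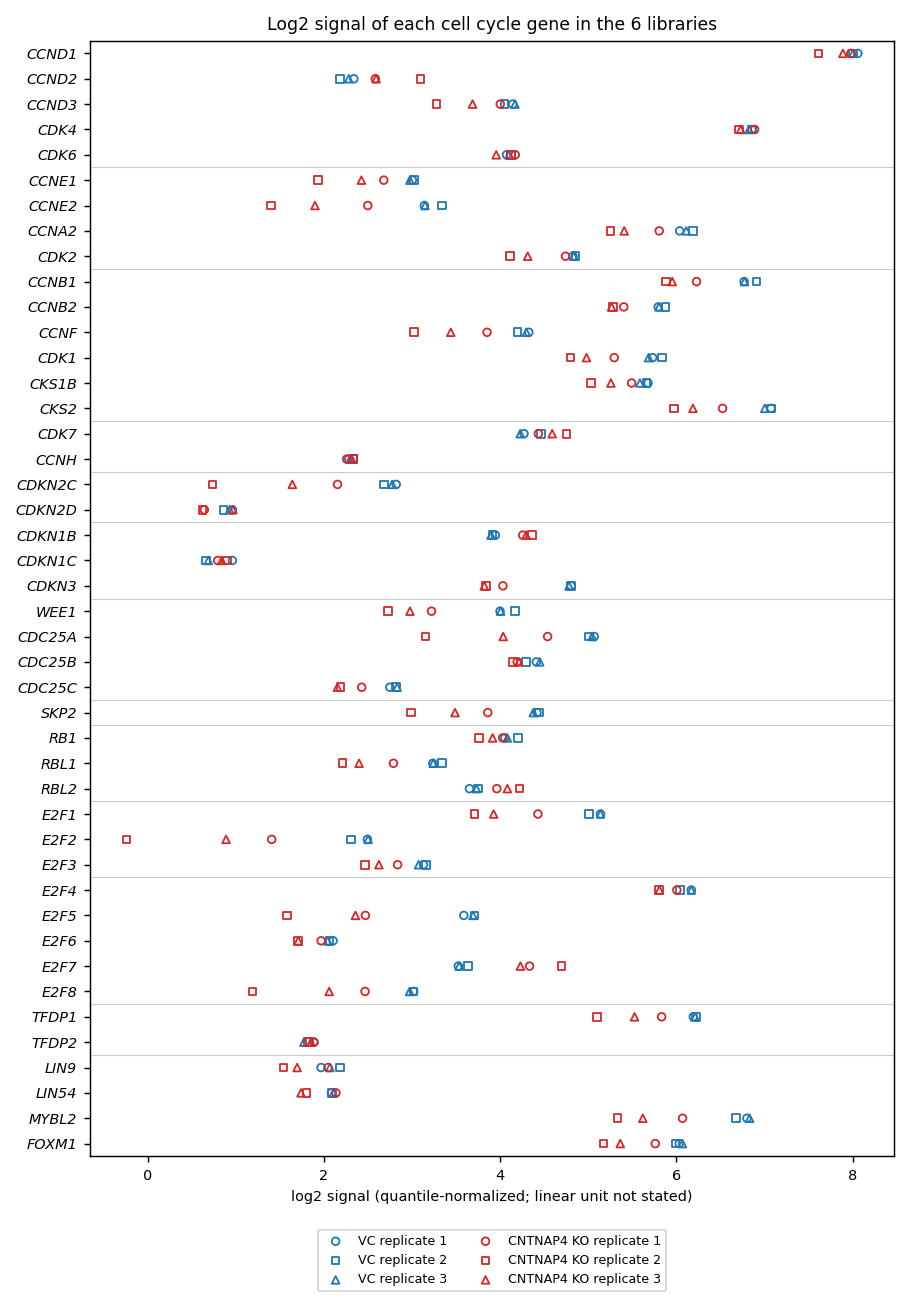
Log2 signal (x axis, quantile-normalized, linear unit not stated) of each of the 44 tested genes (rows, ordered by role) in the 3 VC libraries (blue) and 3 KO libraries (red), with the replicate number as the marker shape. Red lies left of blue without overlap in 31 rows and right of blue in 4 (CCND2, CDKN1B, RBL2 and E2F7).

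Of the INK4 inhibitors of CDK4 and CDK6, CDKN2A and CDKN2B had no value in any of the 6 libraries. In RefSeq order, the neighbours MTAP, an enzyme of methionine salvage that most cells express, the pseudogenes TUBB8P1 and UBA52P6 and the long noncoding RNA CDKN2B-AS1 also had no value in any library, while the flanking genes LOC107987026 and DMRTA1 had a value in all 6. Beyond these flanks, the pseudogenes IFNWP19, KHSRPP1 and CLIC4P1, the microRNA MIR31 and the noncoding LOC107987054 had no value either. MIR31HG, IFNE and LINC01239, also beyond the flanks, had a value in all 6. DMRTA1 was at 0.20 to 0.29 in VC and 0.28 to 0.54 in KO, and LOC107987026 at -4.07 to -3.59 in VC and -4.12 to -3.52 in KO. These neighbours were looked at after the empty cells of CDKN2A and CDKN2B had been seen. CDKN2C, the INK4 inhibitor p18, had log2 signals of 2.82, 2.68 and 2.77 in VC and 2.15, 0.74 and 1.64 in KO. All KO values were under all VC values and KO replicate 2 was furthest below, and the adjusted p was 0.0506 (log2 fold change -1.25, SE 0.36, adjusted p = 0.017 without KO replicate 1 and 0.0375 without KO replicate 2). CDKN2D was at 0.86 to 0.96 in VC and 0.62 to 0.97 in KO, with overlap (-0.17, adjusted p = 0.286).

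Of the CIP/KIP inhibitors, CDKN1B was higher in KO. CDKN1B encodes p27, which binds and blocks cyclin E and cyclin A kinases, and had log2 signals of 3.95, 3.91 and 3.90 in VC and 4.26, 4.36 and 4.30 in KO. The 3 values of each group were close together, and KO stood at 131% of VC (log2 fold change 0.39, SE 0.07, adjusted p = 0.0159, and at most 0.0692 with a library left out, without VC replicate 3). SKP2, the F-box protein that marks p27 protein for degradation, was at 4.42, 4.44 and 4.38 in VC and 3.86, 2.99 and 3.49 in KO (-0.97, SE 0.23, adjusted p = 0.0305, and at most 0.0875, without VC replicate 1). CDKN1C, which encodes p57, had overlapping groups (0.08, adjusted p = 0.606). CDKN1A, which encodes p21 and is no gene of the 46, was at 3.87, 3.74 and 3.85 in VC and 5.63, 6.17 and 5.74 in KO (2.02, SE 0.16, adjusted p = 0.00597). It had an adjusted p of at most 0.036 with any library left out. CDKN3, a phosphatase of CDKs, had the smallest adjusted p of the 44 genes, with log2 signals of 4.81, 4.81 and 4.78 in VC and 4.03, 3.84 and 3.82 in KO (-0.90, SE 0.08, adjusted p = 0.00789). CDKN3 lies on chromosome 14, where the median of 561 tested genes was -0.39. With chromosome-centred libraries its fold change was -0.47 (adjusted p = 0.0127). Leaving out a library gave an adjusted p of 0.0412 or less.

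The kinase and phosphatases that set the inhibitory phosphate on CDKs were lower on average in all 4 genes, without overlap. Of the 4, 2 (50%) were called lower, against 19.8% of all genes tested. WEE1, the kinase that adds this phosphate, had log2 signals of 3.999, 4.17 and 4.01 in VC and 3.22, 2.73 and 2.98 in KO. KO stood at 47.2% of VC (log2 fold change -1.08, SE 0.14, adjusted p = 0.0107, and at most 0.0459 with a library left out). CDC25C, a phosphatase that removes it at mitotic entry, was at 2.75, 2.81 and 2.83 in VC and 2.43, 2.19 and 2.15 in KO (-0.54, SE 0.10, adjusted p = 0.0177, and at most 0.0685, without VC replicate 3). CDC25A, which acts from G1 onward, was at 5.01 to 5.07 in VC and 4.54, 3.15 and 4.03 in KO. Its mean difference was as large as that of WEE1 but its KO spread was wider (-1.13, SE 0.36, adjusted p = 0.0601, and 0.0188 without KO replicate 1 and 0.0444 without KO replicate 2). CDC25B was at 4.29 to 4.45 in VC and 4.15 to 4.21 in KO (-0.20, adjusted p = 0.0911). CDC25B lies on chromosome 20, and with chromosome-centred libraries its sign turned (0.07, adjusted p = 0.578).

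The pocket proteins differed among themselves. RBL1, which encodes p107 and is itself an E2F target, had log2 signals of 3.24, 3.34 and 3.24 in VC and 2.79, 2.21 and 2.40 in KO (log2 fold change -0.81, SE 0.16, adjusted p = 0.0218). RBL2, which encodes p130, the pocket protein most abundant in resting cells, was at 3.65, 3.75 and 3.73 in VC and 3.96, 4.22 and 4.08 in KO (0.38, SE 0.09, adjusted p = 0.0327). Thus every KO library was under every VC library for RBL1 and above every VC library for RBL2. RB1 was at 4.05 to 4.21 in VC and 3.76 to 4.03 in KO (-0.21, adjusted p = 0.149). RBL1 lies on chromosome 20, where the median of 491 tested genes was -0.25, and it was not called with chromosome-centred libraries (-0.53, adjusted p = 0.0888), whereas RBL2 was (0.56, adjusted p = 0.0248). The highest adjusted p with a library left out was 0.0701 for RBL1 (without VC replicate 3) and 0.105 for RBL2 (without VC replicate 1).

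The 3 activator E2Fs, which bind RB1 and switch on S phase genes, were all lower in KO, against 19.8% of all genes tested. E2F1 had log2 signals of 5.14, 5.01 and 5.14 in VC and 4.43, 3.71 and 3.93 in KO (log2 fold change -1.07, SE 0.20, adjusted p = 0.0182). E2F2 had the largest log2 decrease of the 44 genes, from 2.49, 2.31 and 2.50 in VC to 1.41, -0.24 and 0.89 in KO (-1.75, SE 0.43, adjusted p = 0.0334), a KO level of 29.8% of VC. Its KO values also had the widest spread of the group. E2F3 was at 3.13, 3.16 and 3.07 in VC and 2.84, 2.46 and 2.62 in KO (-0.48, SE 0.11, adjusted p = 0.0306). E2F1 lies on chromosome 20 and had an adjusted p of 0.0502 (fold change -0.80) with chromosome-centred libraries. With a library left out the highest adjusted p was 0.0656 for E2F1 and 0.094 for E2F2 (each without VC replicate 3), and 0.0921 for E2F3 (without VC replicate 1).

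Of the 5 repressor E2Fs, 1 was lower and 1 higher (20% each), near the 19.8% lower and 13.1% higher of all genes tested. E2F5, which represses genes together with p130, had log2 signals of 3.59, 3.71 and 3.69 in VC and 2.47, 1.58 and 2.36 in KO (log2 fold change -1.53, SE 0.25, adjusted p = 0.0149), 34.7% of VC. E2F5 is on chromosome 8 and kept a fold change of -1.22 (adjusted p = 0.0275) with chromosome-centred libraries. E2F7, an atypical E2F that represses E2F targets without a DP partner, had the largest rise of the 44 genes, from 3.52, 3.63 and 3.53 in VC to 4.33, 4.70 and 4.23 in KO (0.86, SE 0.14, adjusted p = 0.0148). E2F8, the other atypical E2F, had the opposite sign, at 3.02, 3.02 and 2.97 in VC and 2.47, 1.19 and 2.06 in KO (-1.10, SE 0.33, adjusted p = 0.0547, and 0.0204 without KO replicate 1 and 0.0333 without KO replicate 2). E2F4 was at 6.04 to 6.17 in VC and 5.81 to 6.01 in KO (-0.25, adjusted p = 0.0797, and 0.0259 without KO replicate 1). E2F6 was at 2.04 to 2.10 in VC and 1.71 to 1.97 in KO (-0.28, adjusted p = 0.0791, and 0.0129 without KO replicate 1). The highest adjusted p with a library left out was 0.0576 for E2F5, 0.0578 for E2F7 and 0.205 for E2F4, each without VC replicate 3. It was 0.129 for E2F8 (without VC replicate 1) and 0.198 for E2F6 (without KO replicate 3).

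TFDP1, the DP partner with which most E2Fs bind DNA, had log2 signals of 6.19, 6.22 and 6.21 in VC and 5.83, 5.10 and 5.53 in KO (log2 fold change -0.72, SE 0.19, adjusted p = 0.0408, and at most 0.107 with a library left out, without VC replicate 3). The KO values were all under the VC values and spread more widely. TFDP2 had overlapping groups (0.02, adjusted p = 0.846), and its sign turned without VC replicate 3 (-0.01). MYBL2, which encodes B-MYB, was at 6.80, 6.67 and 6.83 in VC and 6.07, 5.33 and 5.62 in KO (-1.09, SE 0.20, adjusted p = 0.0178). It lies on chromosome 20 and kept a fold change of -0.82 (adjusted p = 0.0488) with chromosome-centred libraries. FOXM1, which with B-MYB and MuvB switches on G2/M genes, was at 6.03, 5.99 and 6.07 in VC and 5.76, 5.17 and 5.36 in KO (-0.60, SE 0.16, adjusted p = 0.0423, and 0.053 with chromosome-centred libraries). The highest adjusted p with a library left out was 0.0651 for MYBL2 and 0.115 for FOXM1, each without VC replicate 3. The MuvB core subunits LIN9 (-0.31, adjusted p = 0.165) and LIN54 (-0.20, adjusted p = 0.24) had overlapping groups, and without KO replicate 1 their adjusted p was 0.0251 and 0.0161. Their highest adjusted p with a library left out was 0.344 for LIN9 (without KO replicate 2) and 0.491 for LIN54 (without KO replicate 3).

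The promoters of E2F1, which fell, and E2F7, which rose, are shown with the same marks because both hold E2F motifs while the genes moved in opposite directions.
E2F1, chr20:33686386-33686585, - strand: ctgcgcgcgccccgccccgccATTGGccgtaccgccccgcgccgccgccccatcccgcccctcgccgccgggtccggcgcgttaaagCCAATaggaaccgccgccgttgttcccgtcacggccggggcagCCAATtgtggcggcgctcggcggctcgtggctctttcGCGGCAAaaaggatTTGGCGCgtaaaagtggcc
E2F7, chr12:77065570-77065769, - strand: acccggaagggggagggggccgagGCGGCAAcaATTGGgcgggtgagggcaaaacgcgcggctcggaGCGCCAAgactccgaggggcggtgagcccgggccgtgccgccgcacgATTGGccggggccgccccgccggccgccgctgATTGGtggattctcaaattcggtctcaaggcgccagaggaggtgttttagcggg
The E2F1 stretch has E2F motifs that end at -27 and -13, and the E2F7 stretch has them ending at -170 and -127. Each stretch also holds 3 CCAAT boxes and no CHR element. Among the other activator and repressor E2Fs with an entry, E2F2, E2F3 and E2F6 held an E2F motif.

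Chromosome position moved with some of these results. The medians of the log2 fold change on chromosomes 8, 14 and 20 were -0.32, -0.39 and -0.25, and 34.3%, 46% and 36% of their tested genes were called lower. Of the 44 genes, 7 lie there (CCNE2, E2F5, CDKN3, E2F1, RBL1, MYBL2 and CDC25B), and 6 of these were called lower. Of the 37 genes on other chromosomes, 13 (35.1%) were called lower and 3 higher, with a median log2 fold change of -0.45. Over all genes tested, on any chromosome, 19.8% were called lower and 13.1% higher. With each library centred on the median of the genes of the same chromosome, 18 of the 44 genes were called. CCNE2, CCNF, RBL1, E2F1 and FOXM1 were no longer called, and CCND2 was gained as higher (0.51, adjusted p = 0.0487).

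**Figure D4:**
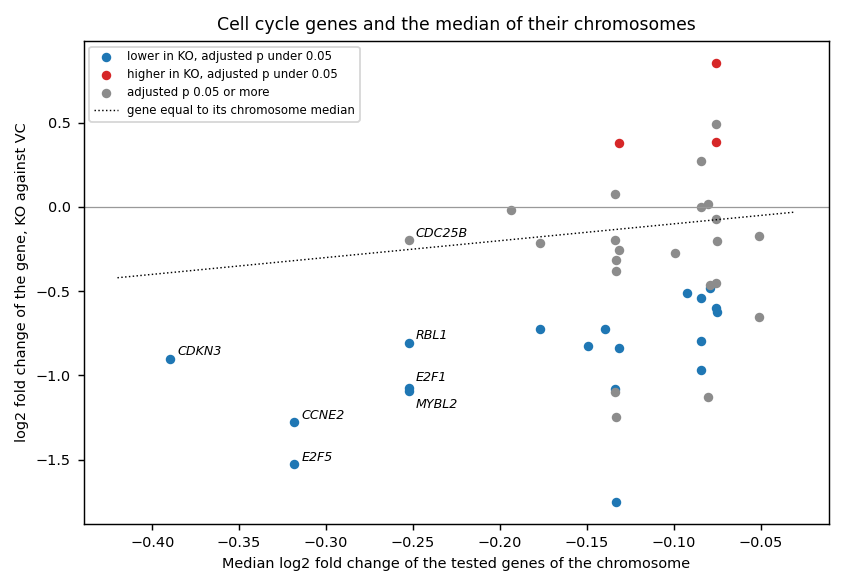
Log2 fold change of each of the 44 tested genes (y axis) against the median log2 fold change of the tested genes of its chromosome (x axis), with genes on chromosomes 8, 14 and 20 named and a dotted line where a gene would equal its chromosome median. CDC25B lies close to the line, and the other 6 named genes lie 0.51 to 1.21 below it.

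Other cell cycle genes were counted in 8 lists with 134 genes. Of these 133 were tested, 56 called lower (42.1%) and 14 called higher (10.5%), against 19.8% and 13.1% of all genes tested. The share called lower was 100% of the G2/M genes, 37.5% of the G1/S genes and 42.9% of the ubiquitin ligase and checkpoint genes. All 25 G2/M genes were lower in KO, with a median log2 fold change of -0.76, from -1.48 for AURKA (adjusted p = 0.00952) and -1.20 for ANLN to -0.56 for PLK1 and -0.46 for ECT2 (adjusted p = 0.0252). MKI67, which encodes the proliferation antigen Ki-67, was at 5.83, 5.88 and 5.84 in VC and 5.25, 4.38 and 4.78 in KO (-1.05, SE 0.22, adjusted p = 0.0255). Of the 24 G1/S genes, 9 were lower and none higher (median -0.60), led by TYMS, the thymidylate synthase (-1.01, adjusted p = 0.0146), and UHRF1 (-0.89), with MCM6 (-0.59) the smallest decrease among those called. Leaving out VC replicate 1, 2 or 3 left 4, 11 or 3 of the G2/M genes and 0, 1 or 0 of the G1/S genes called. Leaving out KO replicate 1, 2 or 3 gave 25, 25 or 9 of the G2/M genes and 20, 5 or 0 of the G1/S genes. Among 28 genes of ubiquitin ligases and checkpoints 12 were lower and 1 higher, ANAPC11 (0.43, adjusted p = 0.0173), with ANAPC1 (-0.76) and CDC14B (-0.67) at the lower end and CUL1 (-0.34) the smallest decrease among those called. CUL1 was not called with median-centred (-0.26, adjusted p = 0.0651) or chromosome-centred libraries (-0.14, adjusted p = 0.193). Over all 8 lists, 11, 23 or 9 genes were called without VC replicate 1, 2 or 3, and 95, 53 or 19 without KO replicate 1, 2 or 3.

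Lists outside the replication and mitosis genes were mixed. Over all genes tested, 19.8% were called lower and 13.1% higher. The same shares were 20% and 13.3% in the other CDKs, near those of all genes, and 20% and 20% in the other cyclins. They were 40% and 20% in the MuvB and DREAM genes, and 11.1% and 33.3% in the CIP/KIP and p53 genes. In the genes that feed into G1 they were 8.33% and 33.3%. Among 15 other cyclins 3 were higher and 3 lower, with CCNG2, a cyclin found in arrested cells, at 0.11, -0.11 and 0.11 in VC and 1.28, 2.12 and 1.62 in KO (log2 fold change 1.64, SE 0.23, adjusted p = 0.0115). CCNA1 was also higher (1.37), and CCNL1 (-0.39) and CCNK (-0.27) were lower. The number of other cyclins called depended on the scaling, with 6 as deposited and 3 with either median-centred or chromosome-centred libraries. CCNL1 was not called with median-centred (adjusted p = 0.0735), re-quantiled (0.0544) or chromosome-centred libraries (0.069). CCNK was not called with median-centred libraries (-0.19, adjusted p = 0.0798), and on chromosome 14, where it lies, its sign turned with chromosome-centred libraries (0.16, adjusted p = 0.152). Of 15 other CDKs 2 were higher, CDK17 (1.27, adjusted p = 0.0113) and CDK18 (0.82), and 3 lower, among them CDK13 (-0.95) and CDK14 (-0.76, adjusted p = 0.0499). CDK14 was not called with median-centred (adjusted p = 0.0583), re-quantiled (0.0518) or chromosome-centred libraries (-0.55, adjusted p = 0.0657). Of 5 tested MuvB and DREAM genes, MYBL1 on chromosome 8 (-2.22, adjusted p = 0.0181) and LIN52 (-0.54) were lower and LIN37 was higher (0.87). LIN52 lies on chromosome 14 and was not called with chromosome-centred libraries (-0.11, adjusted p = 0.422). Beside CDKN1A, GADD45G (1.81) and GADD45A (1.12) were higher in the list of 9 CIP/KIP and p53 genes, and BTG2 was lower (-0.81, adjusted p = 0.00949). Of 12 genes that feed into G1, 4 were higher, among them JUNB (1.40, adjusted p = 0.00891), JUN (0.71) and MYC, and HRAS was lower (-0.57). MYC, whose product drives cyclin D and E2F genes, was at 1.58, 1.52 and 1.65 in VC and 2.22, 2.65 and 2.07 in KO (0.73, SE 0.16, adjusted p = 0.0278, and at most 0.0834 with a library left out, without VC replicate 1).

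**Figure D5:**
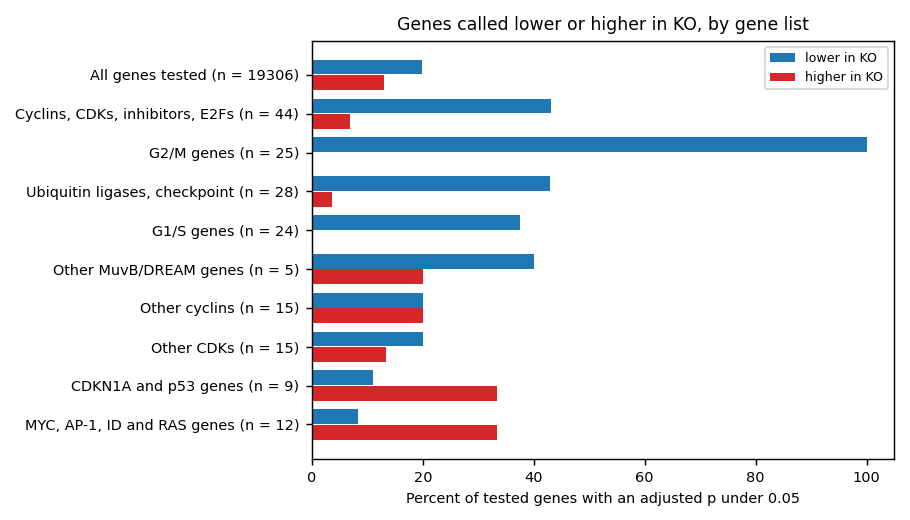
Percent of tested genes called lower (blue) or higher (red) in KO at an adjusted p under 0.05 (x axis) for all genes tested, the 44 genes described here and 8 lists of other cell cycle genes (rows, with the number of genes tested). G2/M genes reach 100% lower, the 44 genes 43.2% lower and 6.82% higher, and all genes 19.8% lower and 13.1% higher.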

How the data were processed

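The authors made 3 VC and 3 KO RNA libraries. Per the labels, CASAVA, STAR and Partek and the build GRCh38.p13 were used, and the methods name CLC and Partek software. The deposited log2 signals had been quantile-normalized by the authors, and the linear unit is not given in the sources used here. Depth is unknown, so no interval for counting error was computed. The 46 genes, the gene lists and the tests were chosen with earlier results of these data known.

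The fit used limma 3.58.1 in R 4.3.3, with no trend, on the 19306 genes that had 2 or more values per group. Its two-sided p-values received Benjamini-Hochberg adjustment over all these genes. Called genes had an adjusted p under 0.05. The fit was tested on simulated data in which each gene was drawn on its own, with the same SD in both groups. The wider spread within KO and the shared shifts of the KO libraries were not simulated. No set test was run. Every gene of the 46 is named, with values in every library for those called. From each other list the 2 called genes with the largest and the 2 with the smallest log2 fold change were named, plus CDKN1A, MYC and MKI67, and 1 gene that the rule picked is not reported here. The p-values measure the spread between RNA samples of clonal cells. Chromosomes and promoters were matched by symbol to RefSeq (GRCh38.p14), which gave a chromosome for 91.4% of the genes tested. Alternatives were the upper 50% of mean signal, genes with 6 values, median-centred, re-quantiled and chromosome-centred libraries, 1 added to the linear signal, trend with robust estimation, no moderation, a replicate block and each library left out.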

Additional observations from a re-analysis of the deposited data

How the results depend on the processing

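All 22 called genes of the 44 kept their sign under every alternative run. The 22 calls (19 lower, 3 higher) became 33 (29 lower) of 42 genes tested in the upper 50% of mean signal, 25 among genes with 6 values, 28 with 1 added to the linear signal, 32 with trend and robust estimation, 22 with median-centred libraries or a further quantile normalization, 18 with chromosome-centred libraries and 14 (11 lower) without variance moderation, where the calls over all genes were 4432 (2442 lower) and the higher calls in the other lists were 8. Over all genes, 6354 of 19306 were called in the main fit and 5702 (3439 lower) of 9653 in the upper 50% of mean signal. The all-gene calls were 6785 of 17698 among genes with 6 values, 7773 with 1 added and 7923 with trend and robust estimation. They were 6207 with median-centred libraries, 6393 after a further quantile normalization and 5483 of 17650 with chromosome-centred libraries. With 1 library left out at a time, 2 to 33 of the 44 genes were called (2 to 30 lower and 0 to 3 higher), 1223 to 8669 of all genes (569 to 5729 lower and 654 to 2940 higher) and 9 to 95 of the other lists (4 to 80 lower and 5 to 15 higher).

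With the replicate number as a block, 2 of the 44 genes were called (1 lower, CDKN3, and 1 higher, E2F7), 1533 of all genes (939 lower, 594 higher) and 12 in the other lists (6 lower, 6 higher). Deviations of same-numbered VC and KO libraries correlated at 0.0226, 0.00509 and -0.00736 across genes for replicates 1, 2 and 3, which are not independent points, and KO replicate 3 correlated best with VC replicate 2 (0.0314), so the numbers were not taken to pair the libraries.

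Signs turned for genes that were not called and for CCNK. With median-centred libraries CDK4 was at 0.017, CDK6 at 0.071 and CCNH at 0.087 on the log2 scale. After a further quantile normalization CDK6 was at 0.010 and CCNH at 0.050. With chromosome-centred libraries CDK6 was at 0.19, CCNH at 0.10, CDC25B at 0.073 and CCNK at 0.16. With 1 library left out, CDK6 ranged from -0.061 to 0.047 (positive without KO replicate 3), CCNH from -0.017 to 0.021 (positive without VC replicate 2 and without KO replicate 1), and TFDP2 from -0.010 to 0.047 (negative without VC replicate 3). The median of all genes moved from -0.13 to -0.02 with 1 added to the linear signal. The causes were not tested. The 3 libraries a group limit what could be called, and the depth is unknown.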
